A study of Homo sapiens with 60 samples.

Results

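Human cells build ribosomes in the nucleolus, and 40 genes that serve this process were followed in HepG2 cells, a human hepatocellular carcinoma line, after treatment with hot-water extracts of tonifying herbs. The 40 genes were listed by name and role, with no measured value in the rule, though earlier results of these data were known when the list was made. They are MYC, 6 genes of RNA polymerase I and its initiation factors, 4 of the box C/D snoRNP, 5 of the box H/ACA snoRNP, 11 of the small subunit processome and 40S maturation, 3 of the PeBoW complex, 6 of large subunit processing and 4 abundant nucleolar proteins. All 40 were found among the 60675 genes of the count table, and all 40 passed the filter on low counts that left 16167 genes to test. RNA was taken after 24 h from cells given vehicle, which was 0.1% dimethyl sulfoxide by the labels of the samples but 2% by the text on the design, or an extract at 500, 100 or 20 µg/mL.

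The single herbs were Cinnamomi Cortex, Astragali Radix, Cnidii Rhizoma and Rehmanniae Radix Preparata, and the formulas were Sagunja-tang, Samul-tang and Palmul-tang. Vehicle and each dose of the first 6 extracts had 3 libraries (57 in 19 groups), and each dose of Palmul-tang had 1. The labels do not say that replicates came from separate cultures, so p-values measure the spread between these libraries, which may be technical. Sample codes put Cnidii Rhizoma with Rehmanniae Radix Preparata, Cinnamomi Cortex with Astragali Radix, and Sagunja-tang with Samul-tang, and vehicle has a code set of its own. A difference from vehicle therefore also holds any difference between code sets, while a dose trend and a comparison within a code set do not.

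Libraries held 16484546 to 34412234 counts (median 25507583), and 13.0% to 22.6% of them came from the mitochondrial genome. The 10 liver markers summed to 58716 to 59146 CPM (counts per 1000000) in vehicle and to 55843 to 57435 CPM at 500 µg/mL Cinnamomi Cortex, while PTPRC was at 0 in 57, CD3E in 58, DCN in 55 and KRT5 in all 60 libraries. Replicate 1 of the 6 Cinnamomi Cortex and Astragali Radix groups stood apart in the hypoxia gene NDRG1, which had 0.604 to 0.930 times the mean of the other replicates there, against 0.793 to 1.18 times in the other 13 groups. Samul-tang 20 replicate 2 stood apart over all genes, with a chi-square per gene of 38.8 and 40.2 against the other replicates, which had 5.45 between them, where the median over all 57 replicate pairs was 9.17. Cnidii Rhizoma 500 replicate 1 had 64.7 and 35.2 against 13.1 between the other 2, and the highest mitochondrial share of all libraries. In Sagunja-tang at 500 µg/mL replicates 1 and 2 differed by 68.0, and each differed from replicate 3 by 16.2 and 24.7. Most results that rest on these libraries are given with and without them, or with the range over fits with 1 library left out.

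In ribosome biogenesis, RNA polymerase I transcribes the long precursor of ribosomal RNA from the ribosomal DNA repeats. Small nucleolar RNAs (snoRNAs), each bound by a set of core proteins to form a snoRNP, guide methylation (box C/D) and pseudouridylation (box H/ACA) of the precursor. The small subunit processome folds and cleaves the part that becomes 18S rRNA, and separate factors mature the large subunit. MYC is known as a transcriptional activator of genes at each of these steps, and it binds the sequence CACGTG together with MAX.

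Values below are CPM on TMM-scaled library sizes, and log2 fold changes carry the standard error (SE) of the fit. A gene is called higher or lower when its two-sided edgeR quasi-likelihood p, adjusted by Benjamini-Hochberg over the 16167 genes, is under 0.05. Each group has n = 3 unless stated otherwise.

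Cinnamomi Cortex at 500 µg/mL gave the widest changes of the 6 extracts: against vehicle, 23 of the 40 genes fell and 6 rose, with log2 fold changes from -1.21 to 0.71. Over all genes tested, 31.6% were lower and 31.1% higher in this contrast, so a call in itself was common, and the 23 lower genes are 57.5% of the 40. With a change of at least 1.5-fold required as well, 8 genes were lower and 2 higher, against 16.7% and 13.7% of all genes. The median of the 40 was -0.23 and that of all genes was -0.02. Scaling by library totals alone moved the median of all genes in this contrast to -0.30 and gave 33 of the 40 lower and 2 higher, MYC and NOP10. Of the 29 calls, 25 were kept with each of the 6 libraries left out in turn, and 28 genes were called without replicate 1 of the code set. In bulk RNA, fewer cells of a type and less RNA per cell cannot be told apart.

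**Figure D1:**
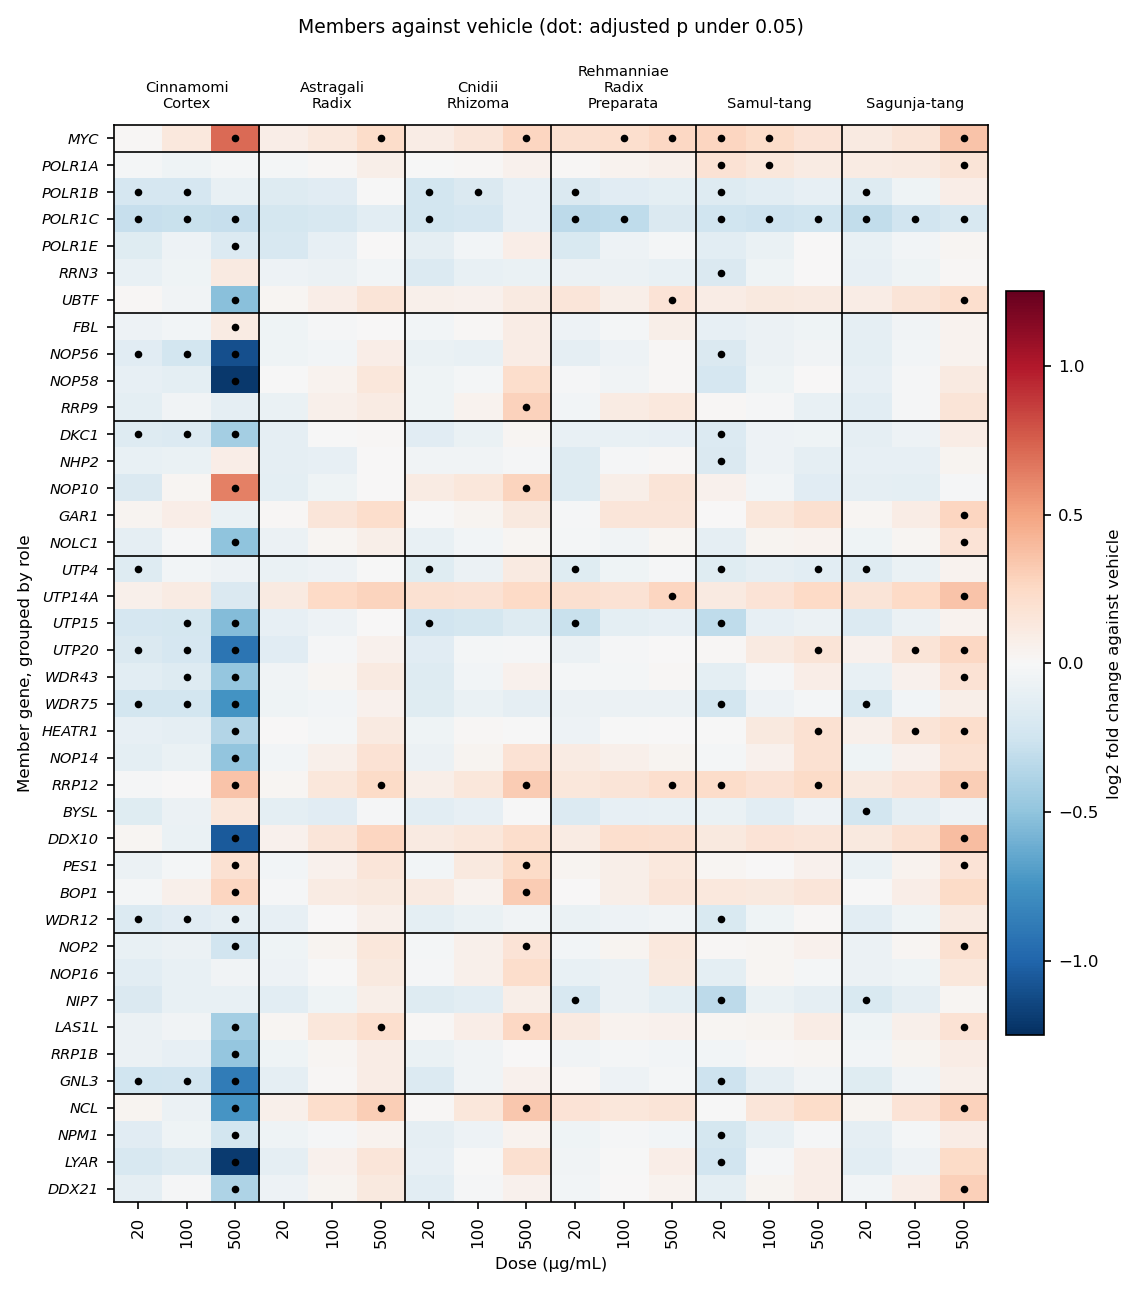
Log2 fold change against vehicle of each of the 40 genes (rows, grouped by role) at 20, 100 and 500 µg/mL of 6 extracts (columns, n = 3 libraries a group); a dot marks an adjusted p under 0.05. The 500 µg/mL Cinnamomi Cortex column runs from -1.21 to 0.71, while no other column passes 0.38 in size.

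MYC itself, the transcription factor among the 40, rose with Cinnamomi Cortex. MYC was at 116, 113 and 111 CPM in vehicle and at 199, 178 and 176 CPM at 500 µg/mL, with no overlap, a log2 fold change of 0.71 ± 0.06 (SE, adjusted p = 1.03e-13). The lower doses stayed close to vehicle, with 109.9, 119 and 113 CPM at 20 µg/mL and 121, 125 and 125 CPM at 100 µg/mL. The rise in MYC was therefore seen mainly in the last 5-fold step of the dose. Of the partners and antagonists of MYC, 6 of 10 rose and 1 fell (6 and 2 with library totals), with a median of 0.47. MAX, the partner with which MYC binds DNA, rose by 0.64 ± 0.06. MXD1, MXD4, MXI1 and MNT, which compete with MYC for MAX, rose by 0.78, 0.61, 0.54 and 0.54, and MLX rose by 0.40. MXD3 of the same family fell by 0.90.

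Among the 6 genes of RNA polymerase I and its factors, 3 fell and none rose. UBTF encodes the upstream binding factor that covers active ribosomal DNA. It was at 70.9, 75.4 and 71.6 CPM in vehicle and at 51.8, 51.8 and 47.7 CPM at 500 µg/mL, a change of -0.53 ± 0.06 (adjusted p = 9.45e-12). All 3 treated libraries lay below all 3 vehicle libraries, and the 20 µg/mL libraries (70.3, 70.4 and 79.2 CPM) did not.

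POLR1C, a subunit shared by RNA polymerases I and III, was at 34.1, 33.8 and 31.9 CPM in vehicle and at 30.0, 25.7 and 25.9 CPM at 500 µg/mL (-0.29 ± 0.07, adjusted p = 0.000423). It was as low at 20 µg/mL (30.1, 27.3 and 24.5 CPM), and its dose trend was -0.00. POLR1E, another subunit, had a change of -0.17 that was called (adjusted p = 0.0324), but not without vehicle replicate 2 (-0.14) or 3 (-0.16) or without treated replicate 1 (-0.17) or 2 (-0.14). POLR1A and POLR1B, which form the catalytic core, and the initiation factor RRN3 had values of -0.03, -0.09 and 0.11 and were not called. Of 9 further genes of this machinery, 5 fell and 1 rose (median -0.58). The lowest were TAF1C at -1.29 and TAF1D at -0.89, subunits of the promoter selectivity factor, the termination factor TTF1 at -0.84 and the subunit POLR1G at -0.65.

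The 2 paired core proteins of the box C/D snoRNP, NOP56 and NOP58, both fell, and NOP58 had the largest fall of the 40 genes. NOP56 was at 393, 426 and 399 CPM in vehicle and at 189, 183 and 197 CPM at 500 µg/mL (-1.10 ± 0.05, adjusted p = 3.15e-26). NOP58 was at 103, 107 and 96.3 CPM in vehicle and at 46.8, 44.3 and 41.3 CPM (-1.21 ± 0.09, adjusted p = 5.38e-17). No treated library of either gene came near a vehicle library. In the 100 µg/mL libraries NOP56 was at 367, 333 and 340.5 CPM and NOP58 at 103, 87.1 and 90.0 CPM, so most of the fall lay between 100 and 500 µg/mL.

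The other 2 genes of the group did not follow them. FBL, the methyltransferase of the same particle, had a change of 0.10 ± 0.04 (adjusted p = 0.0434), which was not called without vehicle replicate 3 (0.07) or treated replicate 1 (0.09) or 3 (0.08) and was -0.18 when scaled by library totals. RRP9, specific to the U3 snoRNP, had -0.11 and was not called. NOP56 lies at chr20:2652145-2658393 and NOP58 at chr2:202265716-202303666 (GRCh38, plus strand), and their annotated spans hold 5 and 4 snoRNA genes.

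In the box H/ACA group, 2 genes fell, 1 rose and 2 were not called. NOP10, the smallest core protein of the particle, was at 90.3, 105 and 96.8 CPM in vehicle and at 146, 158 and 149.9 CPM at 500 µg/mL (0.63 ± 0.10, adjusted p = 1.1e-07). Its libraries did not overlap between the groups, and at 20 µg/mL it was at 95.0, 91.4 and 72.6 CPM. NOLC1, a chaperone of snoRNPs, went the other way, from 165, 173 and 167 CPM to 125, 114 and 118 CPM (-0.50 ± 0.04, adjusted p = 1.56e-14). DKC1, the pseudouridine synthase itself, fell by 0.42 ± 0.05. The core proteins NHP2 (0.09) and GAR1 (-0.09) were not called.

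**Figure D2:**
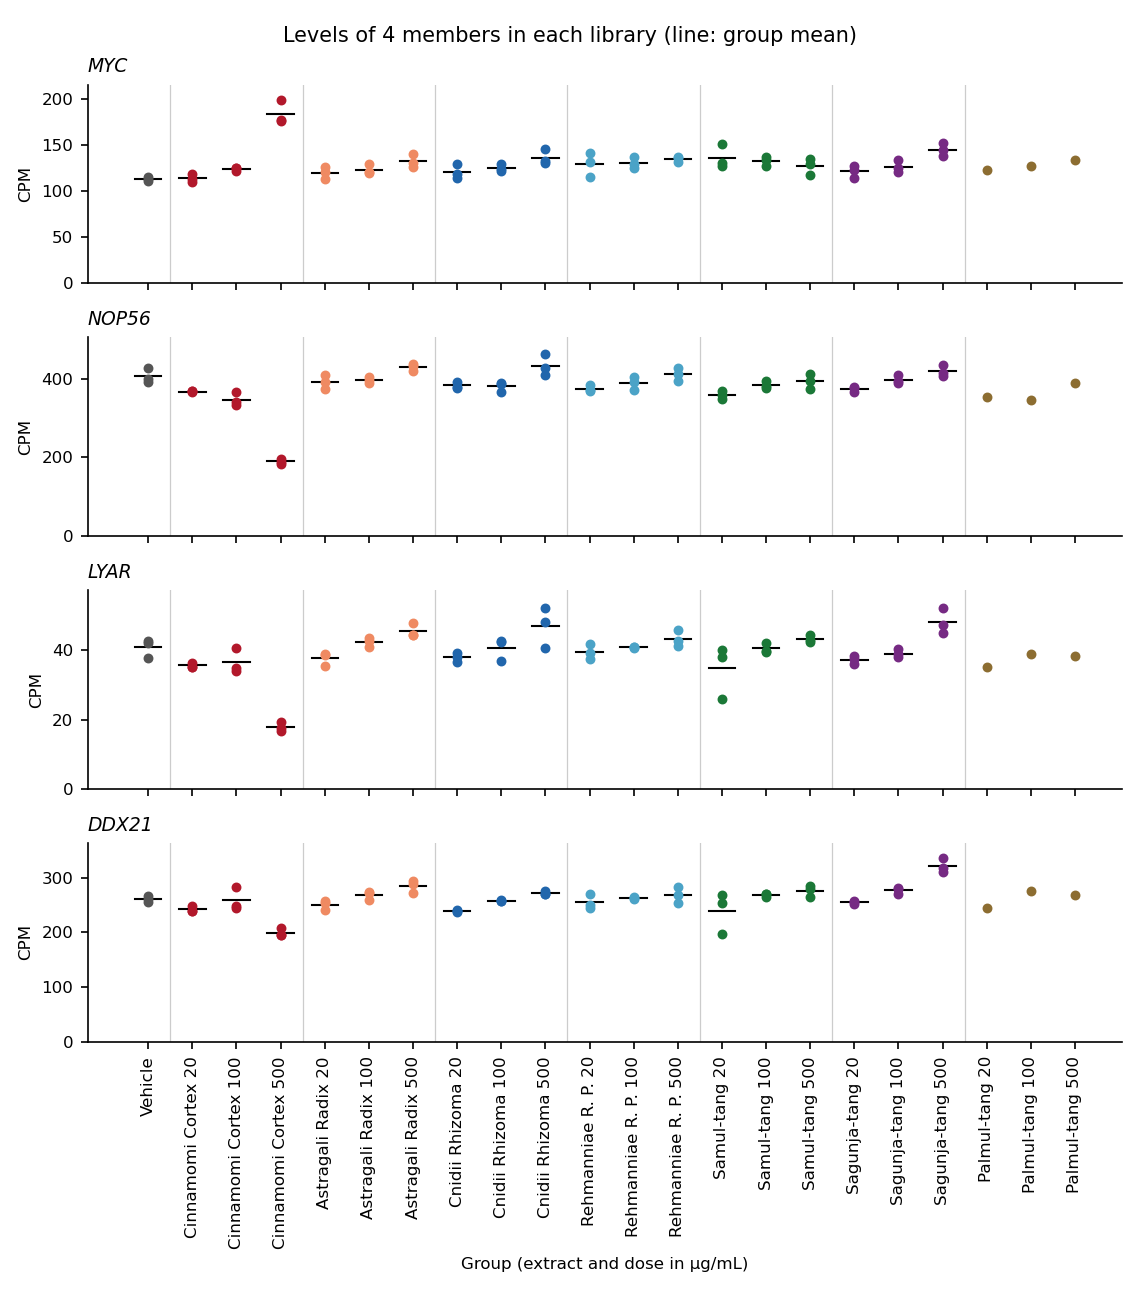
CPM of MYC, NOP56, LYAR and DDX21 in each of the 60 libraries (points) by group, with the group mean as a line; Palmul-tang has 1 library a dose. The Cinnamomi Cortex 500 µg/mL libraries are highest for MYC (176 to 199 CPM) and lowest for NOP56 (183 to 197 CPM) and LYAR (16.7 to 19.1 CPM).

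Among the 11 small subunit processome and 40S genes, 7 fell, 1 rose and 3 were not called. UTP20, a large scaffold protein of the particle, was at 91.9, 90.9 and 96.1 CPM in vehicle and at 47.9, 50.9 and 49.6 CPM at 500 µg/mL (-0.91 ± 0.05, adjusted p = 2.67e-21). DDX10, an RNA helicase, was at 25.3, 26.7 and 25.0 CPM in vehicle and at 12.3, 13.6 and 11.2 CPM (-1.05 ± 0.09, adjusted p = 2.07e-14). For both genes every treated library lay far below every vehicle library. DDX10 was still at 24.9, 25.7 and 22.4 CPM at 100 µg/mL, close to vehicle.

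In all, 4 genes of the subcomplex that joins the precursor first were also lower: WDR75 fell by 0.74, UTP15 by 0.54, WDR43 by 0.48 and HEATR1 by 0.37. UTP4 of the same subcomplex had -0.06 and was not called. NOP14, a 40S assembly factor, fell by 0.49. UTP14A (-0.18) and BYSL (0.14), which act later in 40S maturation, were not called.

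RRP12, which takes part in the maturation and export of subunits, was the gene that rose. It was at 52.0, 53.9 and 50.3 CPM in vehicle and at 68.6, 66.0 and 64.9 CPM at 500 µg/mL (0.35 ± 0.06, adjusted p = 1.29e-06), with no overlap. Scaled by library totals RRP12 had 0.07 and was not called (adjusted p = 0.308). Of 32 other small subunit processome genes, 16 fell and 1 rose (median -0.14). MPHOSPH10, a partner of U3, had -1.67, the 40S assembly factor LTV1 -1.31 and NOL11 -0.80. RCL1 rose by 1.16.

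The PeBoW complex, formed by PES1, BOP1 and WDR12, is needed to mature the 5.8S and 28S rRNA of the large subunit, and 2 of its 3 genes were called higher. PES1 was at 102, 106 and 102 CPM in vehicle and at 114, 122 and 118 CPM at 500 µg/mL (0.19 ± 0.05, adjusted p = 0.000876). BOP1 was at 38.1, 42.8 and 36.9 CPM in vehicle and at 46.4, 47.2 and 48.4 CPM (0.27 ± 0.10, adjusted p = 0.0138). The treated libraries lay above vehicle for both genes, but scaled by library totals PES1 had -0.09 and BOP1 -0.01. The call for BOP1 was lost without vehicle replicate 1 (0.24) or 3 (0.22). WDR12 had -0.12 (adjusted p = 0.0308), and was not called without vehicle replicate 1 (-0.07) or treated replicate 2 (-0.09).

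Of the 6 other genes of large subunit processing, 4 fell and none rose. GNL3 encodes nucleostemin, a nucleolar GTPase, and was at 132, 125 and 129 CPM in vehicle and at 73.4, 69.5 and 68.0 CPM at 500 µg/mL (-0.87 ± 0.07, adjusted p = 7.72e-15). RRP1B was at 95.8, 102 and 96.2 CPM in vehicle and at 75, 67 and 68.3 CPM (-0.48 ± 0.05, adjusted p = 8.29e-12). Neither gene overlapped between the groups. LAS1L, which serves the cleavage of the second internal spacer, fell by 0.42, and NOP2, an rRNA methyltransferase, fell by 0.24. NOP16 (-0.04) and NIP7 (-0.09) were not called.

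Of 40 further genes of large subunit processing, 22 fell and 4 rose (34 and 1 with library totals), with a median of -0.19. The lowest were NOL8 at -1.23, BRIX1 at -0.90, the helicase DDX55 at -0.83 and the GTPase GNL2 at -0.77. The RNA exosome and RNase MRP, which trim and cut the precursor, had 11 of 20 genes lower and 2 higher (17 and 1 with library totals), with a median of -0.30. Among them, EXOSC9 was at -1.22, EXOSC8 at -0.94 and EXOSC2 at -0.85, whereas EXOSC4 was at 0.73.

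All 4 abundant nucleolar proteins fell. LYAR, a cell growth regulator, was at 42.8, 42.1 and 37.7 CPM in vehicle and at 19.1, 16.7 and 17.7 CPM at 500 µg/mL (-1.20 ± 0.09, adjusted p = 1.35e-15). NCL, which encodes nucleolin, was at 1036, 1176 and 1107 CPM in vehicle and at 676, 649 and 672 CPM (-0.73 ± 0.08, adjusted p = 1.21e-10). Treated and vehicle libraries were well apart for both. In the 100 µg/mL group NCL was at 1161, 996 and 1005 CPM, within reach of vehicle, and LYAR at 40.6, 34.9 and 34.2 CPM. The RNA helicase DDX21 fell by 0.39, and NPM1, which encodes nucleophosmin and has 45 named pseudogenes with which its reads could be confused, fell by 0.22.

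Genes of the finished ribosome lay higher, relative to all genes, than the factors that build it. Of 79 cytosolic ribosomal protein genes, 56 rose and 1 fell at 500 µg/mL Cinnamomi Cortex (median 0.25), but scaled by library totals 5 were higher and 12 lower (median -0.02). A change of scale shifts all genes of a contrast by about the same amount, so it cannot test the distance of a list from all genes. The median of the ribosomal protein genes lay 0.27 above that of all genes, and the distance for the 40 genes was -0.21. Of 20 MYC targets outside the nucleolus, 8 rose and 6 fell (median 0.09), against 3 and 11 with library totals. LDHA had 1.03, TFRC 0.59 and SLC7A5 0.43, and RANBP1 -0.69.

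Other measures moved with this group. The mitochondrial share was 19.4% to 22.3% in its libraries and 14.4% to 16.7% in vehicle, and the TMM factors were 0.834 to 0.863 against 1.01 to 1.04. On raw library totals, without TMM scaling, the 12 markers of other cell types summed to 165 to 180 CPM against 133 to 137 CPM in vehicle. Most of each sum came from CD68 (47.6 to 125 CPM over all libraries) and ACTA2 (44.6 to 74.8 CPM), and the next highest, LYVE1, reached 4.52 CPM. Of the 12, 8 could be tested, 2 higher and 3 lower. The part of these measures in the results was not tested.

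Among the 40 genes, 7 hold annotated snoRNA genes within their span, and all 7 fell at 500 µg/mL Cinnamomi Cortex. They are NOP56, NOP58, DKC1, WDR43, GNL3, NCL and POLR1C, with 1 to 6 snoRNA genes each. Their median was -0.73, while the other 33 genes had a median of -0.12, with 16 lower and 6 higher. Over the dose trend of this extract 6 of the 7 fell and POLR1C did not (-0.0003), while 14 of the other 33 fell and 11 rose. This split was looked for after the values were known and is a description. The summed length of annotated exons, joined over all transcripts of a gene, differed too. This is not the length of the main transcript. With all genes cut into 3 bins of equal size by it, the 10 genes in the shortest bin (up to 3055 bp of exon) had a median of 0.02. The 20 in the middle bin had -0.41 and the 10 in the longest bin -0.45, against 0.05, -0.02 and -0.07 for all genes in those bins.

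**Figure D3:**
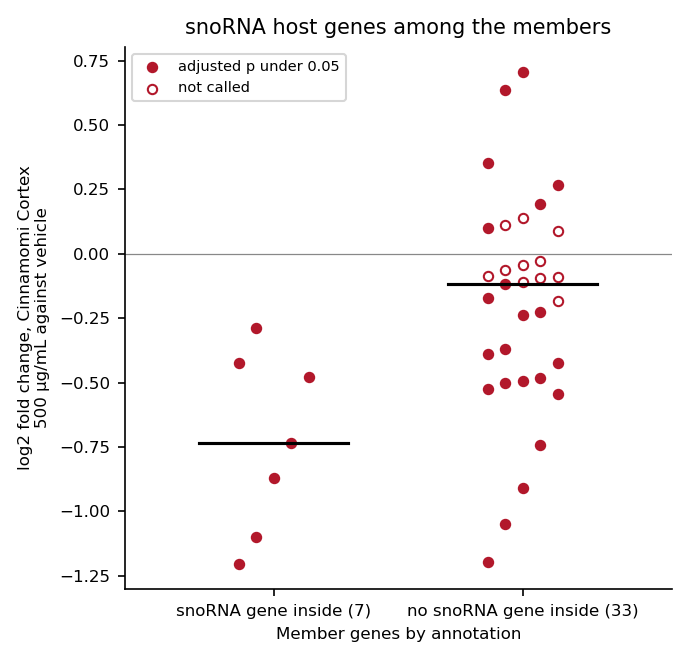
Log2 fold change at 500 µg/mL Cinnamomi Cortex against vehicle for the 7 genes with an annotated snoRNA gene inside their span and the other 33 (points, filled where the adjusted p is under 0.05; line, median). The 7 host genes all lie below 0 with a median of -0.73, and the other 33 spread from -1.20 to 0.71 around -0.12.

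Promoter windows are shown for the 4 genes with the largest changes among those that hold the MYC and MAX motif, 3 that fell and 1 that rose, and for LYAR, which does not hold it. Each window runs from 250 bases before to 50 after the RefSeq transcript start (GRCh38.p14), on the strand of the gene, with CACGTG in capitals. CACGTG reads the same on both strands. UTP20 (chr12:101279855-101280154, plus strand), NOP14 (chr4:2963357-2963656, minus strand) and WDR43 (chr2:28894417-28894716, plus strand) fell, and NOP10 (chr15:34343087-34343386, minus strand), with 2 copies of the motif, rose. LYAR lies at chr4:4290105-4290404 on the minus strand.
UTP20: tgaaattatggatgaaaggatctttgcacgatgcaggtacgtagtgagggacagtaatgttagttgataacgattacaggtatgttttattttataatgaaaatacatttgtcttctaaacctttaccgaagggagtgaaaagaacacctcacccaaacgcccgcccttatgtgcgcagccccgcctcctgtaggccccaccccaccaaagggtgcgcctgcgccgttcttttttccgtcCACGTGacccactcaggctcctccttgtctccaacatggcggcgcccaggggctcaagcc
NOP10: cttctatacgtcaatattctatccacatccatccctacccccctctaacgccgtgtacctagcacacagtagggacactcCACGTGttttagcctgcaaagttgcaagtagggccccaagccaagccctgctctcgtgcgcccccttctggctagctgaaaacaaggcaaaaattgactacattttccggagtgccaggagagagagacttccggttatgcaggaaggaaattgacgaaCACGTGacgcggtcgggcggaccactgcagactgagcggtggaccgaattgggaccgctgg
NOP14: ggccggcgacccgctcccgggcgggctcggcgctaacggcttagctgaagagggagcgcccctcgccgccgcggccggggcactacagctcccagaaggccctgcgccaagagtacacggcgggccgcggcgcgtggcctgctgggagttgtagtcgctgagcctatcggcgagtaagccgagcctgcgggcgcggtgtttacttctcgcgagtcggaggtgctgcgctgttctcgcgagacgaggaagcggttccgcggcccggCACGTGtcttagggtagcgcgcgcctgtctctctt
WDR43: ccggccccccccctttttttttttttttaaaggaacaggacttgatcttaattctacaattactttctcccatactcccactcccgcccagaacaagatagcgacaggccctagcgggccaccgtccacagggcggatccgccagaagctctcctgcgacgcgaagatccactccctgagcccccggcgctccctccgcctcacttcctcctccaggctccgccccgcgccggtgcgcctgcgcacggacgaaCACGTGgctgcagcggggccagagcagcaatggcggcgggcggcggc
LYAR: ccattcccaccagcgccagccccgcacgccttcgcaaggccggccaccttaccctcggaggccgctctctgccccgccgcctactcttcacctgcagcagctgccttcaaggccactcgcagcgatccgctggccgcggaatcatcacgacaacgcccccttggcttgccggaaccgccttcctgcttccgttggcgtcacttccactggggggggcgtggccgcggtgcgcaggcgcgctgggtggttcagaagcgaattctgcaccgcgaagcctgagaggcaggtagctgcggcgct

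RefSeq windows were matched for 33 of the 40 genes, and 11 of these (33.3%) held CACGTG. Among all 35116 RefSeq windows the share was 7.26%. Those windows were not limited to the genes tested in these cells, so the shares are not like for like. Whether the motif is more common in the 40 genes than in other tested genes was not tested. Of the 11 with the motif, 3 rose, 4 fell and 4 were not called at 500 µg/mL Cinnamomi Cortex (median -0.11). Of the 22 without it, none rose by the edgeR call, 15 fell and 7 were not called (median -0.38). These counts leave out the genes with no matched window. Of those, MYC, BOP1 and RRP12 were called higher, and NOP58, NOLC1, POLR1E and RRP1B lower. Of the 3 with the motif that rose, FBL and PES1 changed sign with library totals. Whether a rise goes with the motif was not tested. The motif in UTP20 starts 10 bases before the transcript start, in NOP10 170 and 11 bases before, in WDR43 4 bases and in NOP14 16 bases after. A match is a description of these letters and not a site of binding.

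Over the 3 doses of Cinnamomi Cortex, without vehicle, 20 of the 40 genes fell and 11 rose, against 31.4% and 30.5% of all genes. With library totals these were 30 and 2. A dose trend is the slope in log2 expression per 5-fold step. NOP58 had a slope of -0.55 ± 0.04, DDX10 -0.54 ± 0.05, LYAR -0.50 ± 0.05 and NOP56 -0.48 ± 0.02. NOP10 rose by 0.41 ± 0.05 and MYC by 0.35 ± 0.03 per step. RRP12, PES1 and BOP1 rose as well, by 0.18, 0.13 and 0.14, and RRN3 by 0.10, while POLR1C did not move with dose. With library totals PES1 had -0.00 and RRN3 -0.03. Of the 31 calls, 27 were kept with each library left out in turn, and POLR1B (0.06), UTP4 (0.05), UTP14A (-0.13) and NOP2 (-0.07) lost theirs. For POLR1B and UTP4 this happened without Cinnamomi Cortex 500 replicate 1 or 20 replicate 3 (0.04 and 0.04, 0.04 and 0.03) and for UTP4 also without 500 replicate 3 (0.05) or 20 replicate 2 (0.05). For UTP14A and NOP2 it happened without 500 replicate 2 (-0.11 and -0.06) or 20 replicate 3 (-0.10 and -0.06).

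Below 500 µg/mL the changes with Cinnamomi Cortex were small. At 100 µg/mL 10 genes were lower and none higher than vehicle, against 9.36% and 10.1% of all genes, with values from -0.28 to 0.13. At 20 µg/mL 9 were lower and none higher, against 3.31% and 3.85%. POLR1C, GNL3, WDR75, POLR1B, UTP20, WDR12, DKC1 and NOP56 were called lower at both doses. The count of 10 at 100 µg/mL fell to 4 without its replicate 2 and 6 without replicate 3. The count of 9 fell to 3 without vehicle replicate 1, to 4 without Cinnamomi Cortex 20 replicate 2 and to 0 without replicate 3.

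Astragali Radix shares its code set and dose with Cinnamomi Cortex, so this pair compares the extracts without vehicle. At 500 µg/mL, 27 of the 40 genes were lower with Cinnamomi Cortex than with Astragali Radix and 3 were higher, against 31.8% and 30.9% of all genes. NOP56 was at 437, 431 and 420.3 CPM with Astragali Radix, so the difference was -1.18 ± 0.05 (adjusted p = 2.3e-27). LYAR was at 47.9, 44.4 and 44.5 CPM with Astragali Radix (difference -1.35 ± 0.10), and NCL at 1499, 1353 and 1248 CPM (-1.04 ± 0.08). MYC was at 130.5, 140.4 and 127 CPM there, below all Cinnamomi Cortex libraries (0.48 ± 0.06, adjusted p = 7.39e-09). NOP10 was at 103, 97.0 and 93.4 CPM (0.63 ± 0.10), and RRN3 was higher by 0.15, a call lost without Cinnamomi Cortex replicate 1 (0.14) or 3 (0.13) or Astragali Radix replicate 2 (0.10) or 3 (0.16) and turned to -0.11 by library totals.

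The dose trends of this pair differed for 23 genes, 21 with a lower slope in Cinnamomi Cortex and 2 with a higher one, against 25.9% and 25% of all genes. DDX10 had the widest difference in slope, -0.65 ± 0.06, followed by LYAR at -0.63 ± 0.06 and NOP58 at -0.63 ± 0.06. MYC and NOP10 were the 2 with a higher slope, by 0.28 ± 0.05 and 0.34 ± 0.07. The median difference over the 40 genes was -0.17. Without replicate 1 of the code set the counts were 26 at 500 µg/mL and 23 in the trends.

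In the other extracts every gene called in a dose trend rose, by smaller steps. Sagunja-tang gave the most calls: 21 genes rose with dose and none fell, against 2.7% and 2.29% of all genes. All 40 slopes were above 0, from 0.03 to 0.18, with a median of 0.11 where that of all genes was -0.0005. The 21 genes came from every role group. With RLE size factors 21 rose and with library totals 16, and none fell in either. Between 14 and 22 genes were called with 1 library left out, the fewest without 500 replicate 1, and 10 of the 21 kept their call each time: POLR1B, RRP9, NOLC1, UTP4, UTP20, WDR43, PES1, WDR12, NOP2 and DDX21.

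DDX21 was at 258, 255 and 253 CPM at 20 µg/mL Sagunja-tang, at 282, 269.8 and 279.5 CPM at 100 and at 336, 311 and 318 CPM at 500 (slope 0.17 ± 0.03, adjusted p = 0.000188). NOP2 was at 94.0, 94.4 and 88.5, then 96.9, 96.9 and 102, then 119, 101 and 115 CPM (0.14 ± 0.02, adjusted p = 0.000174). NOLC1 was at 161, 164 and 162, then 173, 168 and 172, then 196, 188 and 185 CPM (0.11 ± 0.02, adjusted p = 0.000415). DDX21 and NOLC1 did not overlap between any 2 doses, while 1 NOP2 library at 500 µg/mL lay within the range at 100.

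**Figure D4:**
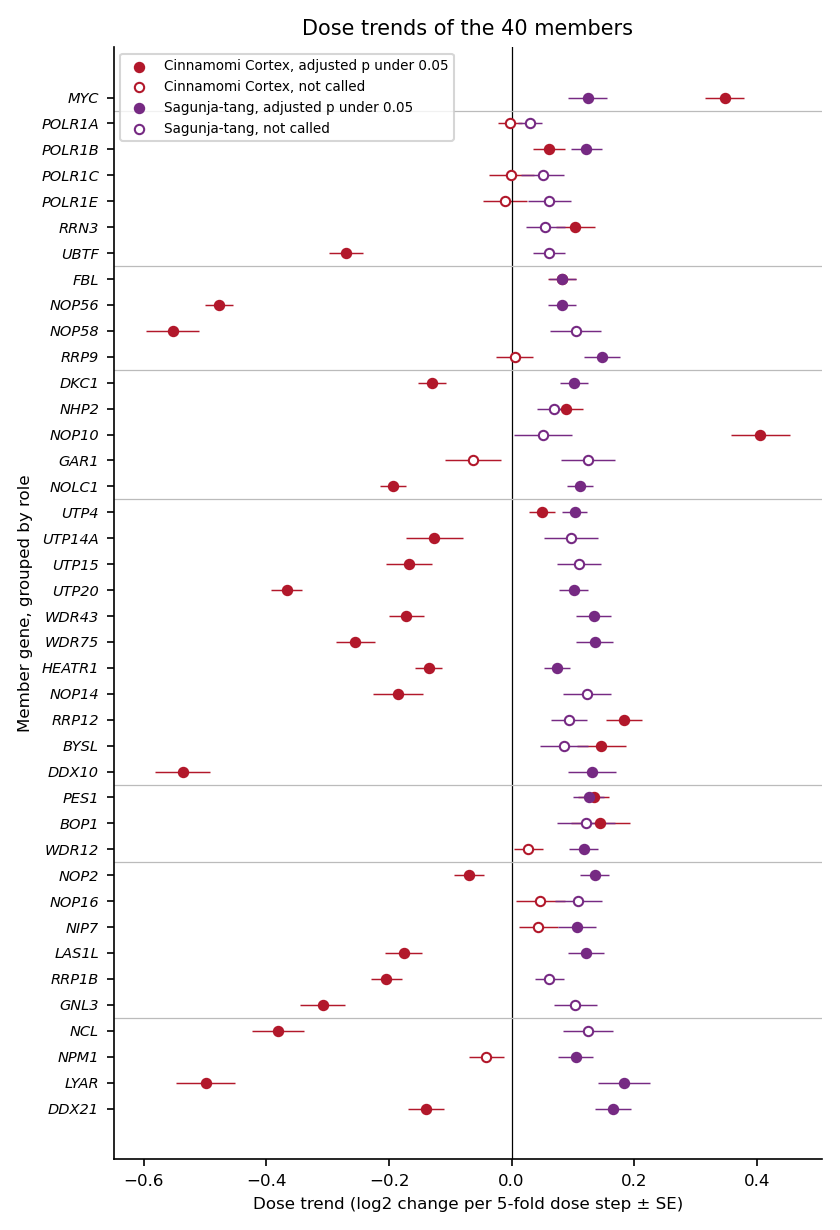
Dose trend (log2 change per 5-fold dose step, ± SE) of each of the 40 genes, grouped by role, for Cinnamomi Cortex and Sagunja-tang; filled points have an adjusted p under 0.05. Every Sagunja-tang slope lies between 0.03 and 0.18, and the Cinnamomi Cortex slopes run from -0.55 to 0.41.

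Against vehicle, 16 genes were higher and 1 lower at 500 µg/mL Sagunja-tang, beside 6.76% and 5.52% of all genes. MYC was at 145, 138 and 152 CPM, above the 111 to 116 CPM of vehicle (0.36 ± 0.06, adjusted p = 9.33e-05). UTP20 was at 114, 109 and 110.0 CPM (0.26 ± 0.05, adjusted p = 0.00015) and RRP12 at 65.1, 63.1 and 65.6 CPM (0.31 ± 0.06, adjusted p = 0.000245), both above every vehicle library. DDX10 rose by 0.38 and HEATR1 by 0.22. POLR1C was the gene that was lower, at -0.20, a call lost without vehicle replicate 1 or 2 (-0.19 and -0.19) or Sagunja-tang 500 replicate 1 (-0.15) or 3 (-0.21). The count of 17 fell to 11 without vehicle replicate 1 or Sagunja-tang 500 replicate 1 or 3.

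Sagunja-tang at 100 µg/mL had 2 genes higher and 1 lower than vehicle, beside 5.31% and 3.54% of all genes, and at 20 µg/mL 6 were lower and none higher, beside 5.13% and 6.23%. UTP20 (0.16) and HEATR1 (0.16) were the 2 higher at 100 µg/mL. UTP20 was not called without vehicle replicate 1 (0.15) or 2 (0.14) or treated replicate 1 (0.15) or 3 (0.15), nor HEATR1 without vehicle replicate 1 (0.16) or 2 (0.14) or treated replicate 2 (0.14). The 3 calls at 100 µg/mL became 0 without vehicle replicate 1 or 2 and 1 without Sagunja-tang 100 replicate 1 or 3. The 6 at 20 µg/mL became 2 without vehicle replicate 1 or 2 or any of the 3 treated libraries.

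With Cnidii Rhizoma 13 genes rose with dose and none fell, against 1.35% and 1.86% of all genes, and all 40 slopes were above 0 (0.01 to 0.17, median 0.09). At 500 µg/mL its replicate 1 had a mitochondrial share of 22.6% and a TMM factor of 0.916, where the other 2 had at most 17.2%, and 1.02 and 0.991. The part of these measures in the result was not tested, and without that library 7 genes were called. UTP4 was at 80.6, 79.6 and 81.6 CPM at 20 µg/mL, at 87.6, 85.3 and 82.0 CPM at 100 and at 95.9, 102 and 91.3 CPM at 500 (0.13 ± 0.02, adjusted p = 3.88e-05). RRP9 was at 28.3, 28.0 and 27.3, then 30.8, 29.6 and 29, then 36.8, 32.8 and 36.2 CPM (0.17 ± 0.03, adjusted p = 0.000213). PES1 was at 103, 101 and 97.4, then 113, 114 and 109, then 125, 114 and 125 CPM (0.14 ± 0.03, adjusted p = 0.00049). UTP4 and RRP9 had no overlap between any 2 doses. These 3 genes kept their call with each library left out. The count also fell from 13 to 3 without 500 replicate 3, 6 without 20 replicate 2 and 4 without 20 replicate 3, and to 5 with library totals.

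Of the 13 genes that rose with Cnidii Rhizoma, 10 also rose with Sagunja-tang (76.9% of the 13 and 47.6% of the 21). These shares are to be read beside the 21 of all 40 genes that rose with Sagunja-tang. Whether the overlap was larger than that base share alone would give was not tested. Of the 13, 3 (RRP9, UTP4 and PES1) kept their call in Cnidii Rhizoma with each library left out. With Cnidii Rhizoma at 500 µg/mL 9 genes were higher than vehicle and none lower, beside 6.11% and 5.67% of all genes, against 6 and 2 with library totals. RRP12 was at 66.3, 62.2 and 67 CPM (0.32, adjusted p = 0.000209), above all vehicle libraries, and RRP9 and PES1 rose by 0.29 and 0.24. Without vehicle replicate 1 the count was 5. With each of the 6 libraries left out in turn it ran from 5 to 11, and MYC, RRP9, RRP12, PES1 and LAS1L kept their calls each time. At 100 µg/mL POLR1B alone was called, at -0.18 (beside 1.43% of all genes lower and 2.15% higher), a call that no fit with 1 of the 6 libraries left out kept (-0.19 to -0.15), and at 20 µg/mL 4 genes were lower, beside 2.96%. The 4 became 1 without vehicle replicate 1 or Cnidii Rhizoma 20 replicate 2 and 2 without vehicle replicate 2 or Cnidii Rhizoma 20 replicate 3.

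Samul-tang had 12 genes rising with dose and none falling, against 4.48% and 5.4% of all genes, and 35 of 40 slopes were above 0 (median 0.06). These calls rested on a single library, 20 replicate 2, which stood apart over all genes. LYAR was at 38.2, 26.1 and 40.1 CPM at 20 µg/mL, at 39.7, 39.8 and 42.2 CPM at 100 and at 44.5, 42.5 and 42.9 CPM at 500 (0.16, adjusted p = 0.0137). DDX21 was at 269, 197 and 254 CPM at 20 µg/mL, again lowest in replicate 2. Without Samul-tang 20 replicate 2 none of the 40 genes was called, LYAR had a slope of 0.07, HEATR1 0.07 and WDR12 0.08. The count was also 5 without Samul-tang 500 replicate 1 and 4 without 500 replicate 3, where HEATR1 had 0.08 and, without 500 replicate 1, WDR12 0.08 and LYAR 0.15, each of them no longer called. HEATR1 was at 121, 105 and 117, then 125, 125 and 123, then 130.0, 125 and 138 CPM (0.10, adjusted p = 0.00315). WDR12 was at 80.7, 74.9 and 79.7, then 83, 86.1 and 88.8, then 93.4, 87.4 and 88.9 CPM (0.10, adjusted p = 0.00586).

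Against vehicle, 3 genes were higher and 2 lower at 500 µg/mL Samul-tang, beside 7.44% and 6.24% of all genes, against 6 and 1 with library totals. HEATR1 rose by 0.19 (adjusted p = 0.00158) and kept its call with each library left out. RRP12 was at 55.9, 64.1 and 64.3 CPM (0.24, adjusted p = 0.00502), and the call was lost without replicate 3 (0.20). POLR1C was at 26.7, 30.1 and 27.1 CPM (-0.25, adjusted p = 0.0116), and was not called without vehicle replicate 2 (-0.24) or Samul-tang 500 replicate 1 (-0.22) or 3 (-0.23). The count of 5 became 3 without vehicle replicate 1, 2 without vehicle replicate 2 and 1 without Samul-tang 500 replicate 3. At 20 µg/mL 14 genes were lower and 3 higher, beside 9.9% and 10.8%. The 3 higher were MYC (0.27), RRP12 (0.23) and POLR1A (0.18). Without replicate 2 the 17 became 9, and MYC (0.19) and RRP12 (0.13) were no longer called. The 100 µg/mL group had 2 higher and 1 lower, beside 4.41% and 3.67%. The 3 became 1 without any of the vehicle libraries or Samul-tang 100 replicate 3, and 0 without replicate 2.

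With Astragali Radix 2 genes rose with dose and none fell, against 0.322% and 0.835% of all genes, and all 40 slopes were above 0 (median 0.08). UTP20 was at 84.0, 85.4 and 83.1, then 88.1, 92.2 and 95.3, then 96.6, 95.6 and 96.8 CPM (0.10, adjusted p = 0.0253), with no overlap between doses. NOP2 was at 94.0, 93.9 and 92.8, then 98.0, 101 and 99.4, then 110.2, 108 and 103 CPM (0.10, adjusted p = 0.0278), again with no overlap. Leaving out any 1 of the 6 libraries at 20 and 500 µg/mL took UTP20 out of the called genes, with slopes of 0.09 to 0.10, and all but 500 replicate 3 did so for NOP2 (0.08 to 0.10). The count was 0 without 500 replicate 1 or 2 or 20 replicate 1 or 3, and without replicate 1 of the code set.

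With Astragali Radix at 500 µg/mL 4 genes were higher than vehicle and none lower, beside 1.56% and 1.48% of all genes. RRP12 was at 64.7, 62.6 and 58.0 CPM (0.24, adjusted p = 0.014), LAS1L at 38.9, 38.0 and 36.2 CPM (0.21, adjusted p = 0.0288), NCL had 0.30 and MYC 0.23. None of the 4 was called without vehicle replicate 1 (RRP12 0.24, LAS1L 0.19, NCL 0.26, MYC 0.24) or 3 (0.22, 0.18, 0.30 and 0.21), or without Astragali Radix 500 replicate 1 (0.21, 0.19, 0.23 and 0.24) or 2 (0.23, 0.21, 0.31 and 0.19), and MYC was not without vehicle replicate 2 (0.23). At 100 and 20 µg/mL edgeR called none of the 40 (beside 1.44% and 2.55% of all genes higher and 0.823% and 1.37% lower), DESeq2 called 0 and 1, and 6 and 8 genes had an unadjusted p under 0.05.

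Rehmanniae Radix Preparata had no called trend by edgeR (beside 0.359% of all genes rising and 0.315% falling) and 1 by DESeq2, with 10 genes at an unadjusted p under 0.05, and 34 of 40 slopes were above 0 (median 0.04). At 500 µg/mL 4 genes were higher than vehicle and none lower, beside 3.87% and 3.58% of all genes. MYC was at 136, 137 and 132 CPM (0.26, adjusted p = 0.00908), above all vehicle libraries, and kept its call with each library left out. MYC was at 141, 132 and 115 CPM already at 20 µg/mL. RRP12 (58.4, 61.2 and 60.6 CPM, 0.21, adjusted p = 0.0243) and UBTF (81.3, 83.5 and 80.2 CPM, 0.17, adjusted p = 0.0403) were both above every vehicle library, and UTP14A had 0.27 (adjusted p = 0.0486). Without vehicle replicate 1 or 3 or treated replicate 2 or 3 MYC alone was called, with RRP12 at 0.20, 0.18, 0.19 and 0.20 and UBTF at 0.15, 0.16, 0.15 and 0.18, and without replicate 1 UBTF (0.17) was not called and the count was 2. UTP14A was called in none of these fits (0.23 to 0.31). At 100 µg/mL POLR1C was lower (-0.31) and MYC higher (0.21), beside 1.72% lower and 2.45% higher of all genes, and with any 1 of the 6 libraries left out POLR1C stayed called and MYC (0.18 to 0.24) did not. At 20 µg/mL 5 were lower and none higher, beside 3.04% and 4.14%, which became 2 without vehicle replicate 1 or treated replicate 1 or 2 and 1 without vehicle replicate 2.

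**Figure D5:**
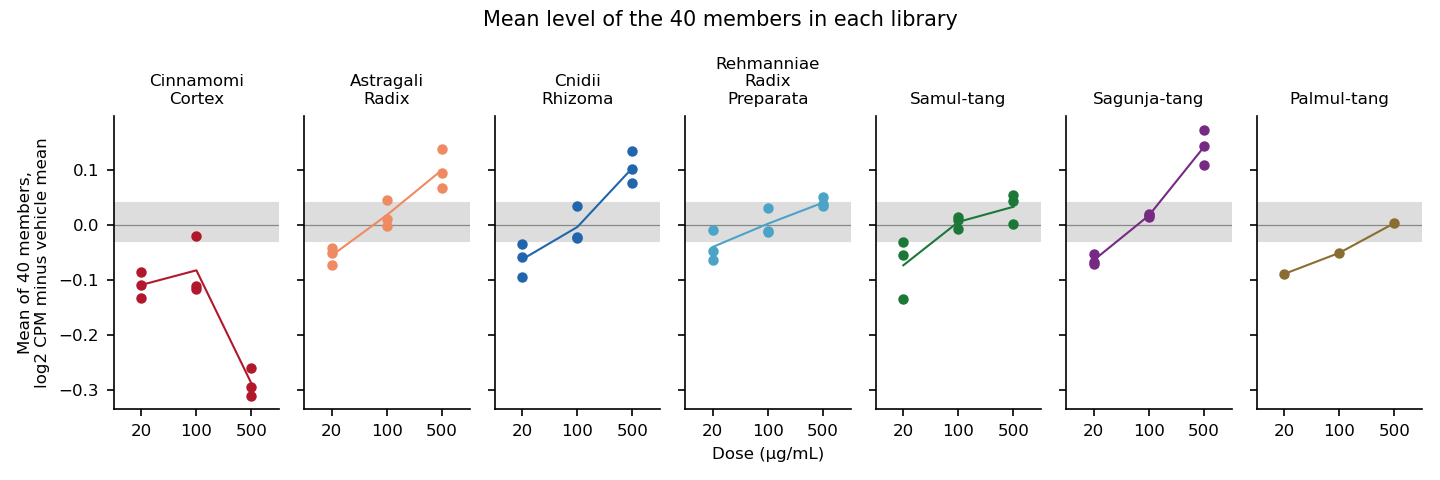
Mean over the 40 genes of log2 CPM minus the vehicle mean in each library (points) at 20, 100 and 500 µg/mL, with lines through the group means; the grey band spans the 3 vehicle libraries. Cinnamomi Cortex falls to -0.31 to -0.26 at 500 µg/mL, and Sagunja-tang goes from -0.07 to -0.05 at 20 to 0.11 to 0.17 at 500 µg/mL.

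At 20 µg/mL the 6 extracts with replicates lay mostly below vehicle, where 26 to 34 of the 40 genes had a lower mean than vehicle. Over all genes, the median of log2 CPM minus the vehicle mean ran from -0.0045 to 0.014 in these libraries. In those at 500 µg/mL of the same extracts it ran from -0.0062 to 0.0073. The counts of slopes above 0 given for each extract are to be read beside these medians. All 40 genes were measured in the same libraries, so their slopes are not independent of one another. The mean over the 40 genes was -0.07 to -0.05 in the Sagunja-tang libraries at 20 µg/mL and 0.11 to 0.17 at 500, and -0.09 to -0.03 and 0.08 to 0.13 in those of Cnidii Rhizoma. In Cinnamomi Cortex it was -0.13 to -0.09 at 20, -0.12 to -0.02 at 100 and -0.31 to -0.26 at 500 µg/mL. The vehicle libraries ranged from -0.03 to 0.04. POLR1C was called lower than vehicle at 20 µg/mL in 5 of the 6 extracts, the exception being Astragali Radix. Since vehicle has its own code set, extract and code set cannot be told apart in these differences.

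WDR43, NIP7 and LYAR were called rising with dose in Sagunja-tang, Samul-tang and Cnidii Rhizoma, those in Samul-tang not without 20 replicate 2. With each library left out in turn, WDR43 alone of them kept its call in Sagunja-tang, and none of them did in Cnidii Rhizoma. Outside the 40, 13 of 32 small subunit processome genes and 14 of 40 large subunit genes rose with dose in Sagunja-tang and none fell, beside 2.7% of all genes rising. With 1 library left out these counts ran from 6 to 11 and from 7 to 15, with 7 and 7 without 500 replicate 1, 8 and 9 without 500 replicate 3 or 20 replicate 1, 6 and 8 without 20 replicate 2 and 7 and 8 without 20 replicate 3. With Cnidii Rhizoma 4 and 7 rose, beside 1.35% of all genes, and 3 and 4 did without 500 replicate 1, 0 and 1 without 500 replicate 3, 3 and 3 without 20 replicate 1, 1 and 3 without 20 replicate 2 and 1 and 2 without 20 replicate 3. With Samul-tang 8 and 7 rose, beside 4.48% of all genes, while none did without 20 replicate 2, beside 0.341%. Without 500 replicate 1 these were 5 and 5, without 500 replicate 3 they were 4 and 2, and without 20 replicate 1 they were 12 and 13. In Sagunja-tang 1 of 79 ribosomal protein genes rose (0 to 2 with 1 library left out), and 1 of 10 MYC partners and antagonists fell. These refits of the other lists were added after the data were seen.

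Within the other code sets few of the 40 genes differed between the extracts. At 500 µg/mL, RRP9 was at 27.5, 29.1 and 24.6 CPM with Samul-tang and at 31.6, 32.2 and 33.1 CPM with Sagunja-tang (-0.26 ± 0.06, adjusted p = 0.0208), and UTP4 at 79.1, 85.9 and 79.6 against 96.1, 90.3 and 90.2 CPM (-0.18 ± 0.04, adjusted p = 0.0201). These were the 2 calls, both lower with Samul-tang and without overlap, beside 0.377% of all genes lower and 0.507% higher. RRP9 was not called without Samul-tang 500 replicate 1 (-0.27) or 3 (-0.19) or Sagunja-tang 500 replicate 2 (-0.26) or 3 (-0.24), and UTP4 was not without Samul-tang replicate 1 (-0.15) or 3 (-0.16) or Sagunja-tang replicate 1 (-0.15). The slope of RRP9 was also lower with Samul-tang, by -0.20 ± 0.04 (adjusted p = 0.0215). Between Cnidii Rhizoma and Rehmanniae Radix Preparata at 500 µg/mL neither edgeR nor DESeq2 called a gene of the 40 (beside 0.353% of all genes higher and 0.353% lower by edgeR), 8 had an unadjusted p under 0.05, and the differences ran from -0.06 to 0.21. Their dose trends differed for none of the 40 by either tool (beside 0.00619% of all genes higher and 0.0619% lower by edgeR), with 10 at an unadjusted p under 0.05.

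Palmul-tang, which joins the herbs of Sagunja-tang and Samul-tang, had 1 library per dose and no test. At 500 µg/mL 35 of the 40 genes were higher than at 20 µg/mL, where 50.2% of all genes were, and the median difference was 0.10 against 0.0008. DDX21 was at 245, 276 and 269.6 CPM at 20, 100 and 500 µg/mL, NCL at 1078, 1164 and 1210.5 CPM and MYC at 123.5, 128 and 134 CPM. The mean over the 40 genes was -0.09, -0.05 and 0.003 against vehicle. The direction with dose was that of its 2 parent formulas, but also that of most slopes with Cnidii Rhizoma, Astragali Radix and Rehmanniae Radix Preparata. The level at 500 µg/mL lay within the vehicle range.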

How the data were processed

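RNA sequencing of HepG2 cells with a directional kit and 100 bp reads, per the labels' protocols, gave 1 table of deposited expected counts per Ensembl gene. Per the submitters' processing notes the authors used STAR 2.7.3a with RSEM 1.3.3 on GRCh38, and Trim Galore 0.6.5 and FastQC 0.11.9, and the strand setting of the counting is not given in the sources used here. The table has 270 columns, of which 60 matched the samples, and the other 210 were not used. Of the values, 8.58% were not whole, and all were rounded. Totals of 16484546 to 34412234 counts per library set the precision.

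All 57 libraries of the 19 groups of 3 entered 1 edgeR 4.0.16 quasi-likelihood fit (limma 3.58.1, R 4.3.3), with filterByExpr, TMM factors (0.834 to 1.05) and 1 mean per group. It gave 30 contrasts: each dose against vehicle, the linear slope over 20, 100 and 500 µg/mL, and the differences within code sets. P-values were two-sided and adjusted by Benjamini-Hochberg over the 16167 genes of each contrast. The fit was also run on counts simulated from its own estimates of mean and spread. Those counts held no outlying libraries and no shared deviations, so they do not test how the fit handles them. Means over the 40 genes used log2 CPM with a prior count of 2. Palmul-tang, with 1 library per dose, stayed out of the fit.

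The 40 genes, the role groups, the 7 other lists of 210 genes and the tests were chosen with earlier results of these data known. Values in each library were given for MYC, for the 2 genes of each role group with the largest change at 500 µg/mL Cinnamomi Cortex, and for up to 3 called genes with the smallest adjusted p in each other extract's contrast at 500 µg/mL and dose trend. Up to 4 called genes were named from each other list, and all MYC partners could be. Promoters shown were the 4 with the largest change among those with CACGTG, and the gene with the largest change without it among those with a window. Other genes of the 40 were named within their role group or, at 20 and 100 µg/mL, after their values were seen. Gene positions came from GENCODE release 29, in which 57055 of the 60675 identifiers were found, and promoter windows from RefSeq (GRCh38.p14). Alternatives were RLE size factors, library totals, no filter, DESeq2 1.42.0, a replicate block, fits of the compared groups alone, the extract's own 20 µg/mL group as comparator, and leaving out single libraries or replicate 1 of the Cinnamomi Cortex and Astragali Radix groups.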

Additional observations from a re-analysis of the deposited data

Results flagged for a closer look

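The dose trends of Cinnamomi Cortex and Astragali Radix, 2 extracts of 1 code set, differed by a test of the difference of slopes for 23 of the 40 genes (edgeR quasi-likelihood test, adjusted p under 0.05), where 25.9% of all genes had a lower and 25% a higher slope in Cinnamomi Cortex. Differences are log2 per 5-fold dose step, Cinnamomi Cortex minus Astragali Radix. MYC (0.28) and NOP10 (0.34) had the higher slope. The box C/D genes NOP58 (-0.63) and NOP56 (-0.54) were among the 21 with a lower slope, as were UBTF (-0.33), which binds ribosomal DNA, and the H/ACA and chaperone genes NOLC1 (-0.26), DKC1 (-0.19) and GAR1 (-0.17). With each library left out in turn, 22 of the 23 calls were kept each time, and that of GAR1 was not.

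In the small subunit processome the differences were -0.65 for DDX10, -0.46 for UTP20, -0.31 for WDR75, -0.29 for NOP14, -0.25 for WDR43, -0.22 for UTP15, -0.21 for UTP14A and -0.19 for HEATR1. Among large subunit genes they were -0.41 for GNL3, -0.28 for RRP1B, -0.27 for LAS1L and -0.17 for NOP2. Among the abundant nucleolar genes LYAR had -0.63, NCL -0.50 and DDX21 -0.23.

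Between Samul-tang and Sagunja-tang the test found 1 gene, RRP9 of the U3 snoRNP, with a slope lower by -0.20 in Samul-tang (adjusted p = 0.0215). This call was lost without Sagunja-tang 20 replicate 2 (-0.19) or 3 (-0.20), Sagunja-tang 500 replicate 3 (-0.19), Samul-tang 20 replicate 2 (-0.16) or Samul-tang 500 replicate 3 (-0.17).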

How the results depend on the processing

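The counts of called genes were recomputed under each alternative. At 500 µg/mL Cinnamomi Cortex, in its dose trend and in both comparisons with Astragali Radix, no alternative moved the count of calls in both directions together by over 1.5 times. By direction, library totals gave 2 higher and 33 lower in place of 6 and 23 at 500 µg/mL, and 2 and 30 in place of 11 and 20 in the trend; for Cinnamomi Cortex minus Astragali Radix in trends it gave 2 and 32 in place of 2 and 21. For the other extracts the counts often moved, and the cause was not tested. Counts are given as the reported value and then the other. With DESeq2 they were at 500 µg/mL 5 and 9 for Samul-tang and 2 and 4 for Samul-tang minus Sagunja-tang; at 100 µg/mL 3 and 5 for Samul-tang and 3 and 7 for Sagunja-tang; at 20 µg/mL 0 and 1 for Astragali Radix; in dose trends 2 and 6 for Astragali Radix, 0 and 1 for Rehmanniae Radix Preparata and 1 and 2 for the difference of Samul-tang and Sagunja-tang. RLE size factors gave 4 for the Astragali Radix trend, and at 20 µg/mL Rehmanniae Radix Preparata 1 higher and 5 lower in place of 0 and 5. Library totals gave 1 for Rehmanniae Radix Preparata at 500 µg/mL, 1 for Rehmanniae Radix Preparata, 0 for Cnidii Rhizoma and 0 for Sagunja-tang at 100 µg/mL, 3 for Rehmanniae Radix Preparata and 3 for Sagunja-tang at 20 µg/mL, 1 and 5 for the trends of Astragali Radix and Cnidii Rhizoma, and 0 and 0 for Samul-tang minus Sagunja-tang at 500 µg/mL and in trends. With no filter the counts were 1 for Astragali Radix and 0 for Cnidii Rhizoma at 100 µg/mL, 6 and 1 for the trends of Astragali Radix and Rehmanniae Radix Preparata, 1 and 1 for Cnidii Rhizoma minus Rehmanniae Radix Preparata at 500 µg/mL and in trends, and 2 for the difference in trend of Samul-tang and Sagunja-tang.

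With the compared groups alone, which leaves fewer libraries to estimate the spread, the counts were 8 for Sagunja-tang at 500 µg/mL, 9, 4 and 1 for Sagunja-tang, Cnidii Rhizoma and Astragali Radix at 100 µg/mL, 8, 2 and 0 for Cnidii Rhizoma, Rehmanniae Radix Preparata and Samul-tang at 20 µg/mL, 8, 1 and 0 for the trends of the same 3, and 0 and 0 for Samul-tang minus Sagunja-tang at 500 µg/mL and in trends. Against the extract's own 20 µg/mL group they were 2 for Astragali Radix, 0 for Rehmanniae Radix Preparata and 12 for Samul-tang. Without replicate 1 of the Cinnamomi Cortex and Astragali Radix groups they were 0, 2 and 0 for Astragali Radix at 500 and 20 µg/mL and in its trend, and 2 for Cnidii Rhizoma at 100 µg/mL.

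Leaving out 1 library at a time, the counts against vehicle ran at 500 µg/mL from 0 to 4 for Astragali Radix, 1 to 3 for Rehmanniae Radix Preparata, 5 to 11 for Cnidii Rhizoma, 1 to 6 for Samul-tang and 11 to 19 for Sagunja-tang. At 100 µg/mL they ran from 4 to 11 for Cinnamomi Cortex, 0 to 2 for Samul-tang and 0 to 4 for Sagunja-tang, and were 0 for Cnidii Rhizoma and 1 for Rehmanniae Radix Preparata each time. At 20 µg/mL they ran from 0 to 9 for Cinnamomi Cortex, 0 to 1 for Astragali Radix, 1 to 7 for Rehmanniae Radix Preparata, 1 to 4 for Cnidii Rhizoma, 9 to 19 for Samul-tang and 2 to 8 for Sagunja-tang. The trends ran from 0 to 3 for Astragali Radix, 3 to 14 for Cnidii Rhizoma, 0 to 17 for Samul-tang and 14 to 22 for Sagunja-tang. Cnidii Rhizoma minus Rehmanniae Radix Preparata at 500 µg/mL ran from 0 to 1, and Samul-tang minus Sagunja-tang from 0 to 2 at 500 µg/mL and 0 to 2 in trends. Where a group was left with 2 libraries, the fit pooled the spread over all groups.

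The labels do not say that a replicate number marks a shared batch, and not every same-numbered pair deviated together, so samples were treated as sharing only a number. Deviations of same-numbered samples had correlations from -0.23 to 0.50 (median 0.11), -0.05 to 0.45 (0.16) and -0.44 to 0.58 (0.04) within the 3 code sets, and 41 of 54 treated samples were closest to their own number within the set, while different numbers of 1 set had a median correlation of -0.06. This is a hint of pairing from the data, not from the design. With a replicate block the Astragali Radix trend had 5 calls, and 8 with the number within each code set as the block. With the block no other count moved by over 1.5 times.

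The 283 values of single genes were refitted under 4398 alternatives. With 1 library left out, 1851 of the refits kept direction and side of the threshold, 381 lost a call, 4 gained one and 14 changed sign; under the other settings these were 1886, 210, 21 and 31. For Cinnamomi Cortex at 500 µg/mL, library totals gave RRN3 -0.17, FBL -0.18, NHP2 -0.19, BYSL -0.14, PES1 -0.086 and BOP1 -0.012. The extract's own 20 µg/mL group as comparator gave POLR1B 0.12, RRP9 0.010, UTP4 0.10, WDR12 0.055, NOP16 0.094 and NIP7 0.087, and in the same comparison UTP4 had 0.021 in Samul-tang and POLR1C 0.10 in Sagunja-tang. For the Cinnamomi Cortex trend, library totals gave POLR1B -0.073, RRN3 -0.030, FBL -0.051, RRP9 -0.13, NHP2 -0.045, UTP4 -0.084, PES1 -0.00015, WDR12 -0.11, NOP16 -0.087 and NIP7 -0.091. POLR1A and POLR1C had trends of 0.0010 and 0.0034 with DESeq2 and 0.00091 and 0.0032 with RLE size factors. RRP9 had -0.00067 in the fit of the compared groups alone, and POLR1E 0.0043 without replicate 1 of the code set. Leaving out 1 library, NOP16 at 500 µg/mL ran from -0.12 to 0.048, and the trends of POLR1A from -0.011 to 0.0074, POLR1C from -0.039 to 0.038, POLR1E from -0.027 to 0.0043 and RRP9 from -0.011 to 0.028. RRN3 in Cinnamomi Cortex minus Astragali Radix at 500 µg/mL had -0.11 with library totals. With 3 libraries a group, small differences may not have been detectable at 16484546 to 34412234 counts per library. With reads of unstated strand setting, the 18 of the 40 genes that overlap an antisense gene, POLR1C, UBTF, DDX10, GNL3, BOP1, PES1, WDR12 and RRP12 among them, cannot be told apart from it.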
